A study of Mus musculus with 75 samples.

Results

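The transcriptome of obstructed kidneys was compared with that of contralateral kidneys in mice labelled PbWT, the wild-type controls of a *Pdgfb* knockout. The comparison took every library whose labels give the genotype PbWT, that is 4 libraries of kidneys with unilateral ureter obstruction (UUO) and 4 of contralateral (CL) kidneys, 8 of the 75 libraries of the series. Libraries of the *Pdgfb* knockout entered the same fit, and those of 2 other control groups served a later comparison. These groups were mice given human IgG Fc (IgG) and noninduced carriers of floxed *Veptp* with endothelial Cre (VeWT). The series followed the effect of TIE2 signaling in endothelium, and of PDGFB, on the early injury of the obstructed mouse kidney, with bulk RNA-seq of whole kidney RNA at day 3. PbWT mice were adult littermates of an inducible global *Pdgfb* knockout. They carried at least one floxed *Pdgfb* allele but no Cre recombinase. Both PbWT groups shared this genotype, and the sources used here do not say whether these mice also received the tamoxifen given to the knockouts. By the study's methods, 2 CL samples of this genotype were lost and were replaced by kidneys of sham-operated PbWT mice, which the labels do not mark, so the CL group is not made of contralateral kidneys alone. The labels name no animal, and mice of both sexes were used on a mixed background. The p-values measure the spread between libraries. For UUO against CL this spread was estimated over 16 libraries, with those of the knockout among them.

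Obstruction of a ureter raises the pressure in the tubules of the kidney above it, and the tubular epithelium loses much of its transport function while the interstitium fills with inflammatory cells and matrix. The contralateral kidney keeps draining and takes over part of the lost filtration. PDGFB is a growth factor that signals through PDGFRβ on pericytes and fibroblasts, cells that wrap the peritubular capillaries and lay down interstitial matrix. Kidney tubules depend on mitochondrial oxidation of fatty acids, most of all in the proximal tubule, where most of the filtered solutes are taken back.

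The 8 libraries held 731092 to 2049326 counts, and values are given as CPM (counts scaled to a library total of 1000000) after normalization for composition (TMM), always in the order of library 1 to 4. A value in parentheses after a gene is its log2 fold change of UUO against CL, and amounts by which a gene rose or fell are on that scale. The library labels matched the tissue, since the tubule genes *Umod*, *Slc34a1*, and *Lrp2* were each found at 391 CPM or more in all 8 libraries. Transcripts of *Xist* and of Y-linked genes both reached 10 counts in CL libraries 3 and 4 and in UUO libraries 1 and 2. Pearson's correlation of log levels across genes between libraries of one group ran from 0.90 to 0.96 and that between the groups from 0.78 to 0.87. The mitochondrial genome supplied 2.91 to 4.03% of counts in CL and 1.23 to 1.80% in UUO. Ribosomal RNA-like transcripts took 5.72 to 9.84% of counts over the 8 libraries.

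Of 10923 genes tested, 1957 were higher (17.9%) and 2119 were lower (19.4%) in UUO kidneys at an adjusted p under 0.05. A change of at least 2-fold was found for 975 of the higher and 921 of the lower genes, and one of at least 8-fold for 68 and 30. The lower genes were abundant ones. They took 55.2 to 58.4% of all counts in CL libraries and 34.9 to 35.9% in UUO libraries, while the higher genes took 6.57 to 6.97% in CL and 17.0 to 18.9% in UUO. All 4 UUO libraries lay above all 4 CL libraries for 1843 genes (16.9%) and below them for 1888 (17.3%), and 3342 of the 4076 called genes were among these. Among the 10 largest falls of called genes with an average log2 CPM of at least 4 and no overlap between the groups were *Inmt* (-4.22), a methyltransferase of small amines, *Cyp2d12* (-3.74), a cytochrome P450, *Gpx6* (-3.66), a glutathione peroxidase, and *Ttr* (-3.58), the thyroxine carrier transthyretin. Without TMM the called genes split into 4336 higher and 1166 lower, so that 78.8% rather than 48.0% of calls were higher, and the median over all genes moved from 0.04 to 0.40 (log2). Small changes are therefore read against that shift. Without the 4 libraries that held both *Xist* and Y-linked transcripts, 1001 genes were called higher and 1284 lower. Of the 4 libraries then left, CL library 1 held 174 counts of Y-linked genes, CL library 2 held 3, and UUO libraries 3 and 4 held 1 each.

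**Figure D1:**
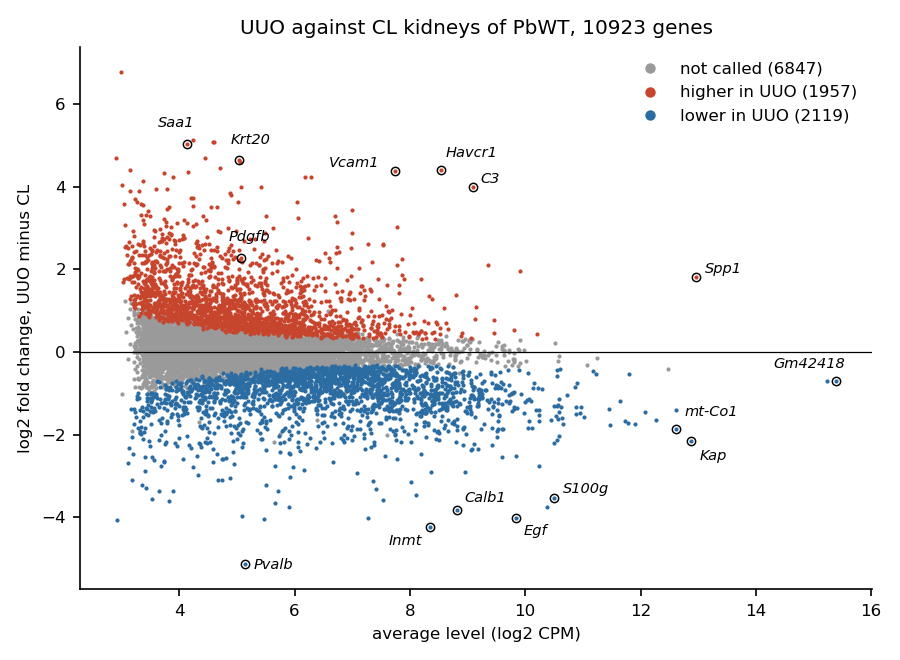
Fold change of UUO against CL (log2, vertical axis) by average level (log2 CPM, horizontal axis) for the 10923 genes tested in PbWT, each point a gene, colored by its call at an adjusted p under 0.05. The 2119 lower genes reach far to the right, among abundant genes such as *Kap* (-2.16) and *mt-Co1* (-1.85), while the largest of the 1957 rises sit at low to middle levels, with *Spp1* (1.82) as an abundant exception.

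*Pdgfb*, the gene floxed in this line, was higher in obstructed kidneys. *Pdgfb* (chr15:79995874-80014977, minus strand, GRCm38) stood at 4.43, 9.76, 7.38, and 19.9 CPM in the CL libraries and 56.5, 54.2, 43.2, and 57.8 CPM in the UUO libraries. Every UUO library lay above every CL library, although the CL libraries differed among themselves by several fold. The difference passed the test (log2 fold change 2.28, SE 0.26, adjusted p = 1.6e-07). Of the other genes of the family, *Pdgfa*, the second classical ligand, rose from 15.4 ± 5.52 CPM in CL to 49.4 ± 10.5 CPM in UUO (mean ± SD, n = 4 in each group, here and below; log2 fold change 1.68, SE 0.24, adjusted p = 3.8e-06). Both receptor genes rose as well, *Pdgfrb* with log2 fold change 1.60, SE 0.23, adjusted p = 5.3e-06 and *Pdgfra* with log2 fold change 1.51, SE 0.27, adjusted p = 6.5e-05. The calls of *Pdgfa* and *Pdgfra* were lost after thinning every library to 337545 counts, the total of the shallowest of the 16 libraries fitted, which is one of the knockout and none of the 8 described here. The ligands that need proteolytic activation did not pass the test, *Pdgfc* at -0.43 and *Pdgfd* at -0.42. In whole-kidney RNA, a change in the number of cells of a type and a change in RNA per cell cannot be told apart, here and in every result that follows.

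Genes of the injured tubule rose together. All 8 genes that the study displayed as markers of tubular injury were higher in UUO, with a median log2 fold change of 1.62 against 0.04 over all genes tested, a panel shown by the study for these samples and so no independent evidence of direction. *Havcr1*, which encodes the proximal tubule injury protein KIM-1, stood at 8.87, 65.5, 19.2, and 69.1 CPM in the CL libraries and 1129, 926, 614, and 825 CPM in the UUO libraries. The CL libraries spread widely, and the lowest UUO library was still far above the highest CL library (log2 fold change 4.41, SE 0.42, adjusted p = 9.2e-09). *Lcn2*, the gene of the siderophore-binding injury marker NGAL, stood at 5.54, 50.2, 1.48, and 35.6 CPM in the CL libraries and 235, 225, 253, and 202 CPM in the UUO libraries, with a tight UUO group and CL libraries 2 and 4 well above the other two (log2 fold change 3.29, SE 0.39, adjusted p = 2.8e-07). The other members of the panel were *Clu* (1.96), *Krt8* (1.28), *Ets2* (0.91), *Rela* (0.88), and *Piezo1* (0.84), given as log2 fold changes. *Clu* encodes the chaperone clusterin, *Krt8* a keratin of simple epithelia, and *Piezo1* a stretch-activated ion channel.

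A wider list of genes of the dedifferentiated and repairing tubule went the same way, with 25 of 27 tested members higher, 0 lower, and a median of 1.95. *Krt20*, a keratin that healthy tubules hardly express, stood at 0, 6.97, 2.95, and 2.09 CPM in the CL libraries and 72.8, 63.7, 56.7, and 99.9 CPM in the UUO libraries (log2 fold change 4.64, SE 0.38, adjusted p = 5.3e-10). It was near the floor in every CL library and present in every UUO library. The lowest adjusted p of the list belonged to *Dcdc2a*, a doublecortin-domain gene (log2 fold change 2.75, SE 0.18, adjusted p = 4.6e-11), followed by *S100a6* (2.87), a calcium-binding protein, and *Sox4* (2.88), a SOX transcription factor. *Sox9*, the transcription factor of the regenerating tubule, rose from 1.62 ± 0.896 CPM in CL to 16.2 ± 8.08 CPM in UUO (log2 fold change 3.29, SE 0.60, adjusted p = 4.9e-05). *Cd44*, the hyaluronan receptor, had a log2 fold change of 3.99. *Spp1*, which encodes osteopontin, rose from 3984 ± 1789 CPM in CL to 14066 ± 2305 CPM in UUO (log2 fold change 1.82, SE 0.31, adjusted p = 3.5e-05). The stem-cell marker *Prom1* (-0.05) and *Krt7* (0.20) did not pass the test.

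**Figure D2:**
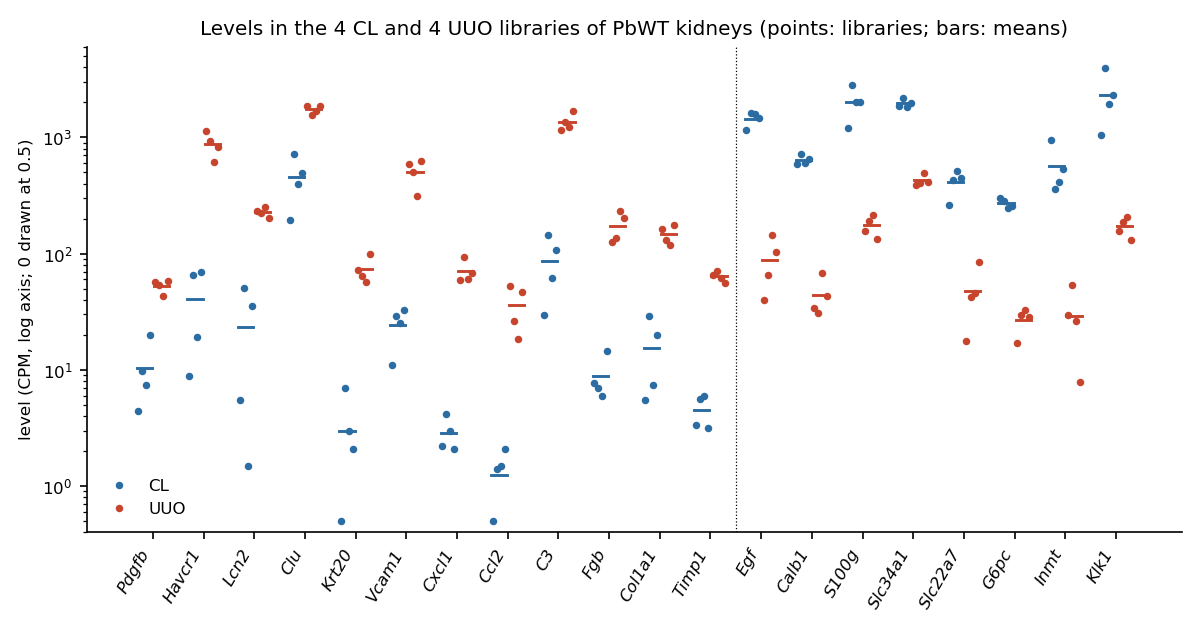
Level of 20 genes in each of the 4 CL and 4 UUO libraries of PbWT (CPM, log axis, with 0 drawn at 0.5), each point a library and each bar the group mean. Left of the dotted line are genes with all 4 UUO libraries above all 4 CL libraries, such as *Havcr1* (4.41), and right of it genes with all 4 below, such as *Egf* (-4.02).

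Genes for complement and clotting factors, which are best known as products of the liver, were among the strongest rises. In the list of complement, fibrinogen, and acute-phase genes, 19 of 23 tested members rose and 3 fell, with a median of 2.15. The 3 chains of fibrinogen, the precursor of the fibrin clot, are encoded side by side on chromosome 3 within 42.1 kb (chr3:83007724-83049863, GRCm38). *Fga* stood at 29.9, 26.5, 20.7, and 32.5 CPM in the CL libraries and 210.1, 173, 316, and 281 CPM in the UUO libraries. *Fgb* stood at 7.76, 6.97, 5.90, and 14.7 CPM in the CL libraries and 126, 136, 233, and 203 CPM in the UUO libraries. *Fgg* stood at 28.8, 32.1, 23.6, and 20.9 CPM in the CL libraries and 267, 202, 330.0, and 342 CPM in the UUO libraries. No UUO library overlapped the CL range in any of the 3 genes. The log2 fold changes were 3.14 (SE 0.22) for *Fga*, 4.24 (SE 0.29) for *Fgb*, and 3.44 (SE 0.23) for *Fgg*, with adjusted p = 1.1e-10, 8.7e-11, and 7.8e-11.

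Because these neighbouring genes moved together, the 250 bases before each start site are shown, taken from RefSeq (GRCm38.p6) and written 5′ to 3′ on the strand of the gene. For *Fga* the start in GENCODE (chr3:83026076) lies inside this window, as the annotations differ, and positions below count from the RefSeq start. Capitals mark the letters TTCNNNGAA, the palindrome bound by STAT factors, and CTGGGAA, an element described in promoters of acute-phase genes, both searched on both strands.
Fga (chr3:83025903-83026152, plus strand): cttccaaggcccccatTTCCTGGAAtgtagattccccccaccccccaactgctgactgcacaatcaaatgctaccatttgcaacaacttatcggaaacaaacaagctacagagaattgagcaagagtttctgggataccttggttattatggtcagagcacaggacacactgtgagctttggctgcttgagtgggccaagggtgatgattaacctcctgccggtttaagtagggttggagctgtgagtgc
Fgb (chr3:83049864-83050113, minus strand): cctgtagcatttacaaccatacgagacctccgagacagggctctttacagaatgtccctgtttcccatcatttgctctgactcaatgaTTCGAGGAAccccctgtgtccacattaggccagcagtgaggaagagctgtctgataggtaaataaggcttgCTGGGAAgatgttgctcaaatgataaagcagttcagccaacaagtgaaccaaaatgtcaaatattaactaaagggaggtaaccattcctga
Fgg (chr3:83007474-83007723, plus strand): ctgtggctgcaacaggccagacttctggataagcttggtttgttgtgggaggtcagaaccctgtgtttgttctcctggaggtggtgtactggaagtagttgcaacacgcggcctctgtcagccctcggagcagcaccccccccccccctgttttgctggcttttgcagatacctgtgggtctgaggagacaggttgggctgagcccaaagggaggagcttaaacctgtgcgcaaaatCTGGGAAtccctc
TTCNNNGAA was present once in *Fga* (bases -234 to -226 from the start) and once in *Fgb* (-162 to -154). CTGGGAA was present once in *Fgb* (-91 to -85) and once in *Fgg* (-13 to -7). Windows of the same length held TTCNNNGAA in 7.02% and CTGGGAA in 9.10% of 32851 mouse promoters, and a match is a description of the letters, not of a bound site. *Stat3* (log2 fold change 1.53, SE 0.16, adjusted p = 3.9e-08), its inhibitor *Socs3* (3.20), and the oncostatin M receptor *Osmr* (1.50) rose, while the cytokine genes *Il6*, *Il11*, and *Lif* and the receptor gene *Il6ra* were too low to be tested.

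*C3*, the central complement component, rose from 85.9 ± 50.5 CPM in CL to 1358 ± 237 CPM in UUO (log2 fold change 3.99, SE 0.28, adjusted p = 8.7e-11), which made it one of the most abundant genes among the large rises. *C1ra*, *C1s1*, and *Cfi*, which start or restrain the complement cascade, had log2 fold changes of 2.17, 1.73, and 2.15, while the gene of the alternative-pathway factor *Cfb* did not pass the test (0.31). *Cd55* (-1.21) and *Cd59a* (-0.70), which protect host cells from complement, fell. The call of *Cd59a* was lost without CL library 2. *Saa1*, the acute-phase gene of serum amyloid A, stood at 0, 1.39, 0, and 2.09 CPM in the CL libraries and 30.1, 23.8, 33.3, and 51.9 CPM in the UUO libraries (3 counts in CL and 225 in UUO, a ratio of 35.8 with a 95% interval of 12.1 to 175, exact and for counting error only).

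The list of chemokines and cytokines had the highest median of the 43 gene lists in the main fit. In it 14 of 15 tested members rose, 1 fell, and the median was 2.51, while 17 further members, among them *Il6*, *Il1b*, and *Tnf*, were too low to be tested. Genes near 0 in CL could enter the test through their UUO libraries, so this count and ranking rest partly on the filter. After thinning the median was 2.06, against 2.60 for macrophage genes and 3.27 for a list of endothelial activation genes. *Ccl2*, which draws monocytes, stood at 0, 1.39, 1.48, and 2.09 CPM in the CL libraries and 52.7, 26.2, 18.2, and 47.0 CPM in the UUO libraries (log2 fold change 4.69, SE 0.53, adjusted p = 3.8e-08). *Cxcl1*, which draws neutrophils, stood at 2.22, 4.18, 2.95, and 2.09 CPM in the CL libraries and 59.6, 93.5, 60.7, and 68.6 CPM in the UUO libraries (log2 fold change 4.61, SE 0.38, adjusted p = 2.9e-10). Both genes were near the floor in CL and clear of it in every UUO library. *Il1f6*, the gene of the epithelial cytokine IL-36α, had a log2 fold change of 4.46, *Ccl5* one of 4.24, and *Cxcl10* one of 3.29. *Cxcl12*, the constitutive chemokine that retains CXCR4-bearing cells, was the member that fell (-0.87), a call not made without TMM, with all 75 libraries, after thinning, or without the 4 libraries holding *Xist* and Y-linked transcripts.

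Of the NF-κB and TNF receptor genes, 15 of 17 rose and 0 fell (median 1.68). They included the subunit genes *Nfkb1* (1.46), *Nfkb2* (1.72), and *Relb* (2.39), the inhibitor genes *Nfkbia* (1.67), *Nfkbie* (3.15), and *Tnfaip3* (1.68), and *Tnfrsf12a*, the receptor of TWEAK (log2 fold change 2.42, SE 0.18, adjusted p = 2.5e-10). Adhesion molecules that such signals induce rose with them. *Vcam1* (chr3:116109949-116129688, minus strand, GRCm38) stood at 11.1, 29.3, 25.1, and 32.5 CPM in the CL libraries and 590.3, 503, 316, and 625 CPM in the UUO libraries, with no overlap between the groups (log2 fold change 4.37, SE 0.32, adjusted p = 1.7e-10), and *Icam1* rose from 16.9 ± 2.21 CPM in CL to 81.8 ± 11.6 CPM in UUO (2.25). *Gm43109*, annotated as an antisense transcript that overlaps *Vcam1* on the opposite strand over part of its length, had 3 counts in CL and 232 in UUO, a ratio of 36.9 with a 95% interval of 12.5 to 180.3. As no source used here gives the strand setting of the counting, its reads and those of *Vcam1* in the shared stretch cannot be told apart.

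Macrophage genes were higher in 21 of 22 cases and lower in 0, with a median of 2.30. Of these, *Adgre1*, *Cd68*, *Mrc1*, and *Ccr2* were markers that the study displayed for these samples, and so no independent evidence of direction. The summed level of the whole macrophage list ran from 310.4 to 643 CPM in CL and 1431 to 2211 CPM in UUO. *Cd68*, a lysosomal protein of macrophages, stood at 0, 0, 2.95, and 7.33 CPM in the CL libraries and 20.1, 17.9, 15.5, and 25.5 CPM in the UUO libraries, without overlap (log2 fold change 2.74, SE 0.50, adjusted p = 8.3e-05). *Ccr2*, the receptor of CCL2 on recruited monocytes, had a log2 fold change of 3.62, *Adgre1* (F4/80) one of 2.09, *Mrc1* (CD206) one of 3.29, and *Cx3cr1*, the fractalkine receptor, one of 3.11. The complement genes of resident macrophages *C1qa*, *C1qb*, and *C1qc* rose by 2.16, 2.10, and 2.46, and *Csf1r* by 0.49, a value that was -0.14 after thinning and whose call was lost without CL library 1 or UUO library 2 or 4. No neutrophil marker of 11 was high enough to be tested, with summed levels of 2.22 to 5.90 CPM in CL and 5.65 to 29.8 CPM in UUO, with *Camp* and *Elane* at 0 in all 8 libraries. Of the 20 genes of the lymphocyte list, which also holds the myeloid and dendritic cell genes *Cd33*, *Flt3*, and *Xcr1*, only the immunoglobulin genes *Ighm* and *Igkc* were tested, and neither passed. Genes of the interferon response and antigen presentation rose in 28 of 34 cases (median 1.06). Class II genes were among them, with *H2-Ab1* at 2.10 (adjusted p = 6e-09) and *H2-Eb1* at 1.59, as were the immunoproteasome genes *Psmb8* (1.73), *Psmb9* (1.67), and *Psmb10* (2.16) and *Gbp2*, an interferon-induced GTPase (2.91). With all 75 libraries in the fit 18 of this list were called.

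Genes of the interstitial matrix rose. All 14 genes of the study's panel for modification of the extracellular matrix rose, with a median of 1.81, again a panel shown for these samples. *Col1a1*, the main chain of fibrillar collagen, stood at 5.54, 29.3, 7.38, and 19.9 CPM in the CL libraries and 164, 131, 119, and 175 CPM in the UUO libraries (log2 fold change 3.24, SE 0.34, adjusted p = 4.4e-08). All UUO libraries exceeded all CL libraries. The other collagens of the panel rose by 2.59 (*Col1a2*), 3.03 (*Col3a1*), and 1.76 (*Col4a1*, a basement membrane chain). *Fn1*, which encodes fibronectin, had the values 40.6 ± 13.0 CPM in CL and 196 ± 38.0 CPM in UUO (log2 fold change 2.27, SE 0.21, adjusted p = 8.7e-09). Genes of contractile and myofibroblast cells were *Acta2* (1.51), *Tagln* (1.47), and *Cnn2* (1.07). *Tnc* (1.91) and *Dcn* (1.80) encode matrix proteins, *Mmp2* (1.81) and *Adamts1* (2.61) proteases, and *Timp2* (1.09) a protease inhibitor.

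Beyond the panel, 26 of 28 matrix genes rose and 1 fell (median 1.87). *Timp1*, the inducible inhibitor of metalloproteinases, stood at 3.33, 5.58, 5.90, and 3.14 CPM in the CL libraries and 65.9, 70.9, 62.3, and 55.8 CPM in the UUO libraries (log2 fold change 3.85, SE 0.30, adjusted p = 1.7e-10), while its constitutive relative *Timp3* fell (-0.90). *Lox*, which crosslinks collagen, had a log2 fold change of 3.94. *Mmp3*, stromelysin, had 2 counts in CL and 105 in UUO, a ratio of 25.1 with a 95% interval of 6.77 to 209.6. *Fbn1* (2.49), *Col12a1* (2.55), and *Col4a2* (1.63) were further members that rose. In the TGF-β pathway, 8 of 16 members rose and 1 fell, with a median of 0.65, and without TMM 14 were called higher. The target gene *Tgfbi* (log2 fold change 2.28, SE 0.19, adjusted p = 2.1e-09), the receptor gene *Tgfbr2* (1.08), the corepressor gene *Tgif1* (1.82), and the activin chain gene *Inhbb* (3.06) rose, and *Bmp7*, which opposes TGF-β in tubules, fell from 42.8 ± 6.98 CPM in CL to 14.9 ± 6.50 CPM in UUO (-1.44). *Tgfb1* was too low to be tested, and *Tgfb2* (0.86) did not pass the test.

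Of the 10 genes of the study's endothelial panel, 2 rose, 0 fell, and the median was 0.28, beside 17.9% higher over all genes. *Cdh5*, VE-cadherin, stood at 20.0, 20.9, 10.3, and 15.7 CPM in the CL libraries and 32.6, 29.8, 33.3, and 30.4 CPM in the UUO libraries (log2 fold change 0.90, SE 0.24, adjusted p = 0.0036), and *Ptprb*, the gene of VEPTP, which dephosphorylates TIE2, at 35.5, 46.0, 39.8, and 41.9 CPM in the CL libraries and 54.6, 56.0, 63.9, and 80.3 CPM in the UUO libraries (log2 fold change 0.63, SE 0.19, adjusted p = 0.0099). In both genes the lowest UUO library lay above the highest CL library. The call of *Cdh5* was lost after thinning and without the 4 libraries holding *Xist* and Y-linked transcripts, and that of *Ptprb* after thinning and with all 75 libraries. *Tek*, the gene of TIE2, stood at 14.4, 32.1, 22.1, and 30.4 CPM in the CL libraries and 22.6, 22.0, 35.7, and 38.2 CPM in the UUO libraries, and the groups overlapped (log2 fold change 0.26, SE 0.24, adjusted p = 0.44). Its ligand gene *Angpt2* stood at 3.33, 25.1, 17.7, and 20.9 CPM in the CL libraries and 11.3, 14.3, 14.3, and 19.6 CPM in the UUO libraries, again with overlap (-0.18). The rest of the panel were *Pecam1* (0.48), *Emcn* (-0.27), *Tie1* (0.31), *Plvap* (0.42), *Kdr* (-0.16), and *Flt1* (0.22). Without TMM 6 of the 10 were called higher, and with thinning 0. Of the growth factor genes, *Vegfa*, made by tubules and podocytes, fell from 94.8 ± 5.46 CPM in CL to 50.0 ± 7.37 CPM in UUO (log2 fold change -0.91, SE 0.15, adjusted p = 4.1e-05), and *Vegfb* fell too (-0.68). The call of *Vegfa* was lost after thinning (-0.40), and that of *Vegfb* after thinning, without TMM, with all 75 libraries, and without the 4 libraries holding *Xist* and Y-linked transcripts. *Klf4*, a flow-responsive transcription factor that is also expressed outside endothelium, rose by 1.86, and *Klf2* (0.30) did not pass the test.

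**Figure D3:**
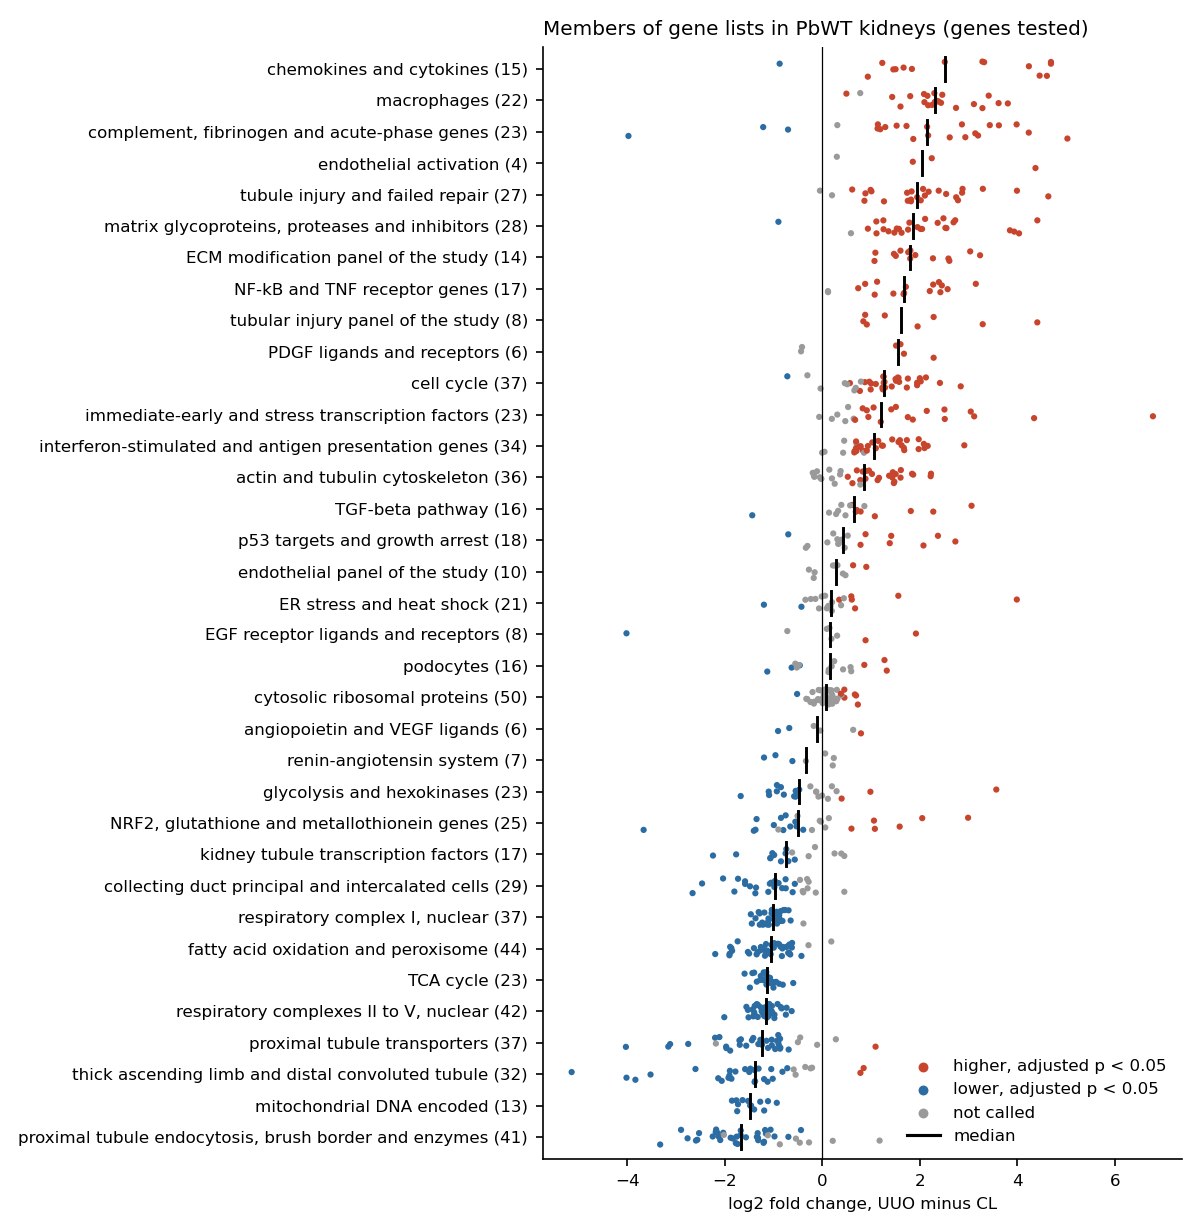
Log2 fold change of UUO against CL for every tested member of each gene list (horizontal axis), 1 line of points a list, with the list median marked and calls colored. Lists of injury, matrix, macrophage, and chemokine genes lie to the right (median 2.51 for chemokines), lists of tubule transport and mitochondrial genes to the left (median -1.16 for complexes II to V), and endothelial genes and cytosolic ribosomal proteins around 0, although without TMM 41 of the 50 ribosomal genes and 6 of the 10 endothelial genes were called higher. The point at 6.78 is *Egr2*, whose fitted value depends on a prior count since its CL counts were 0.

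Proximal tubule genes fell across transport, endocytosis, and metabolism. Of 37 transporter genes tested, 31 fell and 1 rose (median -1.24), and their summed level ran from 14106 to 15498 CPM in CL and 5613 to 6575 CPM in UUO. *Slc34a1*, the main phosphate transporter NaPi-IIa, stood at 1868, 2182, 1823, and 1975 CPM in the CL libraries and 391, 409, 492, and 416 CPM in the UUO libraries (log2 fold change -2.20, SE 0.20, adjusted p = 4e-09). The organic anion transporter gene *Slc22a7* stood at 260.5, 431, 515, and 446 CPM in the CL libraries and 17.6, 42.3, 46.0, and 84.3 CPM in the UUO libraries (log2 fold change -3.16, SE 0.29, adjusted p = 6.6e-09). All UUO libraries were below all CL libraries in both. Other solute carriers that fell were *Slc22a6* (-1.89), *Slc22a8* (-3.12), *Slc22a18* (-1.67), *Slc5a2* (-1.56), *Slc6a19* (-2.11), and *Slc6a20b* (-1.42), among which *Slc22a6* and *Slc22a8* carry organic anions, *Slc5a2* (SGLT2) glucose, and *Slc6a19* neutral amino acids. The glucose carrier gene of the late proximal tubule *Slc5a1* (-0.11) and the efflux pump genes *Abcc2* (-0.45) and *Abcc4* (0.28) did not pass the test. The exception was *Slc13a1*, the sulfate transporter, which rose from 408, 378, 326, and 368 CPM in the CL libraries to 722, 816, 718, and 904 CPM in the UUO libraries without overlap (log2 fold change 1.09, SE 0.18, adjusted p = 2e-05).

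The endocytic receptors *Lrp2* (megalin, -1.34) and *Cubn* (cubilin, -1.17) fell, as part of 33 of 41 members of the list of endocytosis, brush border, and enzyme genes (0 higher, median -1.67). The gluconeogenic genes *G6pc* and *Pck1* were the clearest metabolic example. *G6pc* stood at 301, 282, 249, and 259 CPM in the CL libraries and 16.9, 29.8, 32.5, and 28.4 CPM in the UUO libraries (log2 fold change -3.32, SE 0.18, adjusted p = 3.1e-12). *Pck1* went from 2117 ± 324 CPM in CL to 484 ± 94.4 CPM in UUO (-2.13), and *Fbp1*, the third enzyme of that route here, fell by 1.83 on the log2 scale. *Miox*, which breaks down inositol mainly in kidney, had a log2 fold change of -2.76, *Ass1*, which makes arginine precursors, one of -2.53, and the brush border protease gene *Mep1b* one of -2.59. *Kap*, an androgen-responsive gene of the proximal tubule, went from 9583 ± 579.9 CPM in CL to 2151 ± 867 CPM in UUO (-2.16). It is also in the list of sex-biased genes described below. *Cyp27b1* (1.18), which activates vitamin D, did not pass the test.

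The thick ascending limb and the distal convoluted tubule held some of the largest falls. In their list 25 of 32 genes fell and 2 rose, with a median of -1.39. *Egf*, the epidermal growth factor precursor that these segments secrete, stood at 1160.5, 1609, 1577, and 1455 CPM in the CL libraries and 40.1, 65.5, 146, and 104 CPM in the UUO libraries (log2 fold change -4.02, SE 0.26, adjusted p = 4.6e-11). *Calb1*, the calcium-binding calbindin of the distal tubule, stood at 587, 718, 608, and 649 CPM in the CL libraries and 33.9, 31.0, 68.2, and 43.1 CPM in the UUO libraries (log2 fold change -3.83, SE 0.21, adjusted p = 3.1e-12). *Pvalb*, parvalbumin of the early distal tubule, stood at 32.1, 48.8, 35.4, and 47.1 CPM in the CL libraries and 1.25, 0.596, 0.397, and 2.94 CPM in the UUO libraries (log2 fold change -5.14, SE 0.56, adjusted p = 6.2e-08). In all 3 genes every UUO library lay far below every CL library. *S100g*, calbindin-D9k (-3.52), fell as well, and so did *Klk1*, renal kallikrein (-3.74), which is not in the list. *6330410L21Rik* (-4.03) overlaps *Egf* on the opposite strand over part of its length, where reads of both cannot be told apart.

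The salt cotransporters of these segments and their best known product, uromodulin, fell too. *Slc12a1*, the furosemide-sensitive cotransporter, went from 1014 ± 177 CPM in CL to 242 ± 74.1 CPM in UUO (-2.06), *Slc12a3*, the thiazide-sensitive one, from 645 ± 114 CPM in CL to 177 ± 13.1 CPM in UUO (-1.86), and *Umod*, uromodulin, from 4132 ± 1190.3 CPM in CL to 1807 ± 146 CPM in UUO (-1.19). *Kl*, the gene of the FGF23 coreceptor Klotho, fell from 510.0 ± 38.4 CPM in CL to 116 ± 5.13 CPM in UUO (-2.13). The subunit genes of the sodium pump *Atp1b1* (-1.05) and *Fxyd2* (-1.39) fell too. The rises were *Trpv5* (log2 fold change 0.85, SE 0.23, adjusted p = 0.0053), the apical calcium channel, and *Atp2b1* (log2 fold change 0.78, SE 0.13, adjusted p = 4e-05), a calcium pump. The call of *Trpv5* was lost with all 75 libraries and after thinning. In the list of collecting duct genes 21 of 29 genes fell and 0 rose (median -0.97), and 12 were called lower with all 75 libraries. The list also held *Aqp1*, *Aqp7*, and *Aqp11*, water channel genes of the proximal tubule, and without these 3 it had 19 lower of 26 (median -0.93). The falls included the ammonia channel genes *Rhbg* (-2.47) and *Rhcg* (-1.73), the anion exchanger genes *Slc4a1* (-2.66) and *Slc26a4* (-1.58), and the water channel genes *Aqp3* (-1.80) and *Aqp4* (-1.36). The call of *Aqp4* was lost with all 75 libraries, after thinning, with robust dispersion, and without the 4 libraries holding *Xist* and Y-linked transcripts. *Aqp2*, the vasopressin-regulated water channel, stood at 24.4, 34.9, 36.9, and 35.6 CPM in the CL libraries and 15.7, 23.2, 44.4, and 17.6 CPM in the UUO libraries and overlapped between the groups (log2 fold change -0.30, SE 0.29, adjusted p = 0.44), and of the sodium channel subunit genes *Scnn1a* fell (-0.98) and *Scnn1b* (-0.39) and *Scnn1g* (-0.31) did not pass the test, with no test between them. The call of *Scnn1a* was lost with all 75 libraries, without the 4 libraries holding *Xist* and Y-linked transcripts, and after thinning (-0.22).

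Of 16 podocyte genes tested 3 rose, 3 fell, and the median was 0.16, shares close to the 17.9% higher and 19.4% lower over all genes, while without TMM 7 were called higher and 0 lower (median 0.53). The slit diaphragm gene *Nphs1* (0.13) and *Wt1* (0.59) did not pass the test, *Cd2ap* (1.28) and *Tcf21* (1.32) rose, and the 3 lower calls, which included *Podxl* (-0.46) and *Rhpn1* (-1.13), were each lost without CL library 2, which left none of the list lower. The call of *Podxl* was also lost without CL library 3 or UUO library 1 or 2. Of the transcription factors that hold tubule identity, 11 of 17 fell and 0 rose (median -0.74), against 7 called lower without UUO library 2, 6 with all 75 libraries, and 5 without the 4 libraries holding *Xist* and Y-linked transcripts. Without TMM 5 were called lower and 2 higher (median -0.37). *Hnf4a*, which directs proximal tubule maturation, stood at 494, 378, 414, and 389.5 CPM in the CL libraries and 198, 212, 206, and 187 CPM in the UUO libraries (log2 fold change -1.06, SE 0.15, adjusted p = 2.8e-06). *Esrrb*, an orphan nuclear receptor, had a log2 fold change of -2.24, *Emx1* one of -1.77, and *Esrra*, which drives mitochondrial genes, one of -1.02. The nephron lineage genes *Pax2* (0.39) and *Pax8* (0.25) did not pass the test.

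Mitochondrial energy genes fell as near-complete sets. Nuclear genes of respiratory complex I fell in 36 of 37 cases (median -1.01) and those of complexes II to V in 42 of 42 (median -1.16), with 0 higher in either. The members lay close together, from -2.01 (*Cox7a1*) to -0.63 (*Atp5md*) in complexes II to V. *Sdhb*, the iron-sulfur subunit of complex II, stood at 850.1, 1004, 963, and 933 CPM in the CL libraries and 355, 306, 375, and 388 CPM in the UUO libraries (log2 fold change -1.40, SE 0.12, adjusted p = 3.2e-09). *Ndufb10*, of complex I, stood at 539.8, 796, 668, and 671 CPM in the CL libraries and 263, 233, 251, and 220.4 CPM in the UUO libraries (log2 fold change -1.47, SE 0.13, adjusted p = 2.8e-09). Neither gene overlapped between the groups. All 13 genes of the mitochondrial genome fell (median -1.48), with *mt-Nd2* at -1.73 and *mt-Co1* at -1.85. With all 75 libraries in the fit, 17 of the complex I genes, 17 of complexes II to V, and 10 of the mitochondrial genome were called lower. Without TMM 34 of the complex I genes and 41 of complexes II to V were called lower (medians -0.64 and -0.79).

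Fatty acid oxidation fell in 42 of 44 cases (median -1.05) and the tricarboxylic acid cycle in all 23 (median -1.14), with 0 higher in either list. Without TMM 31 and 22 were called lower (medians -0.69 and -0.77), and 1 fatty acid oxidation gene higher. *Acadm*, the medium-chain acyl-CoA dehydrogenase, stood at 1155, 1711, 1468, and 1495 CPM in the CL libraries and 368, 405, 409, and 435 CPM in the UUO libraries (log2 fold change -1.85, SE 0.15, adjusted p = 1.4e-09). *Ehhadh* (-1.89), a peroxisomal enzyme, *Cpt1a* (-0.91), which admits fatty acids to mitochondria, and the regulators *Ppara* (-0.99) and *Ppargc1a* (-0.74) fell. The calls of both regulators were lost without the 4 libraries holding *Xist* and Y-linked transcripts, and that of *Ppargc1a* also without TMM and after thinning. In glycolysis 12 genes fell and 3 rose of 23 (median -0.47), with 7 lower when TMM was left out. *Hk2*, the inducible hexokinase, was the member that rose most, from 0, 0, 4.43, and 0 CPM in the CL libraries to 11.3, 12.5, 13.9, and 10.8 CPM in the UUO libraries (3 counts in CL and 85 in UUO, a ratio of 13.5 with a 95% interval of 4.47 to 66.9). It had no counts in 3 of the 4 CL libraries. *Gapdh* (-1.09) and *Pgk1* (-0.93) fell.

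**Figure D4:**
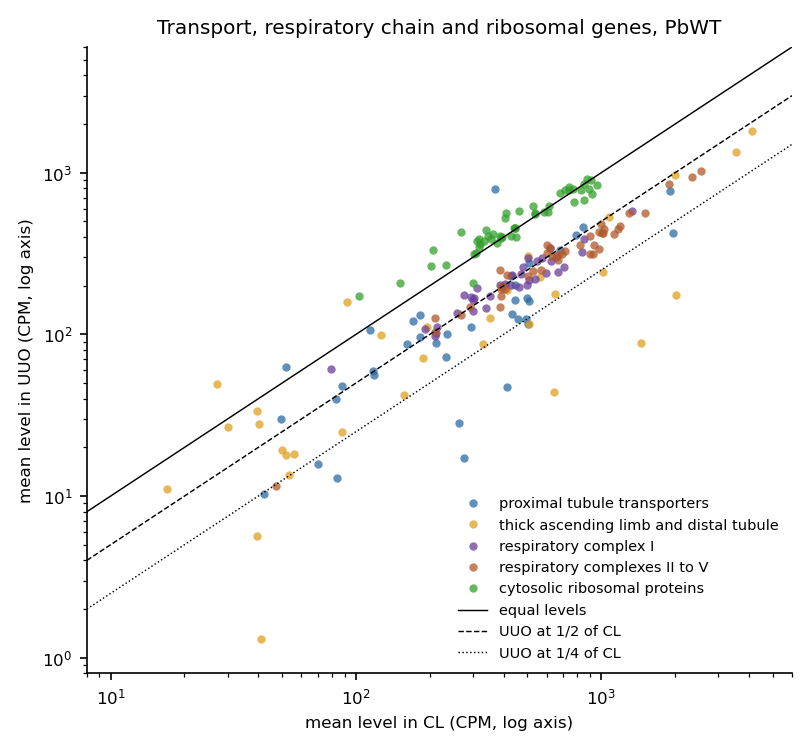
Mean level of each gene in UUO (CPM, log axis) against its mean level in CL (CPM, log axis) in PbWT, each point a gene of 1 of 5 lists, with lines at equal levels, at 1/2, and at 1/4. Respiratory chain genes form a narrow band near 1/2 (medians -1.01 and -1.16, log2), genes of the tubule segment lists scatter from above the equal line (*Slc13a1*, 1.09) to far below it (*Pvalb*, -5.14), and ribosomal protein genes lie near the equal line. Without TMM the respiratory medians were -0.64 and -0.79 and the ribosomal one 0.44.

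Genes of stress signaling and growth rose as well. Of the immediate-early and stress transcription factors 17 of 23 rose and 0 fell (median 1.20). *Atf3*, a stress-induced factor, stood at 0, 0, 1.48, and 3.14 CPM in the CL libraries and 33.2, 25.6, 21.0, and 31.3 CPM in the UUO libraries (log2 fold change 4.34, SE 0.59, adjusted p = 9.7e-07). *Myc* rose from 2.48 ± 1.44 CPM in CL to 20.9 ± 3.04 CPM in UUO (log2 fold change 3.05, SE 0.37, adjusted p = 3.1e-07), *Runx1* by 3.12, and *Klf6* by 2.51. *Egr2* had 0 counts in all CL libraries and 90 in UUO, at least 14.3-fold higher when 3 counts over the group are taken as the floor. *Fos* (0.53) did not pass the test. Cell cycle genes rose in 29 of 37 cases and fell in 1 (median 1.26), with 9 higher after thinning and 16 without the 4 libraries in which *Xist* and Y-linked transcripts met. *Top2a*, of dividing cells, stood at 15.5, 23.7, 19.2, and 17.8 CPM in the CL libraries and 100.4, 82.2, 50.8, and 58.8 CPM in the UUO libraries (log2 fold change 1.95, SE 0.27, adjusted p = 2.1e-06). *Mki67* rose by 1.51 and *Uhrf1* by 2.84, whereas *Ccnd1*, a cyclin of early cycle entry, fell (-0.72), a call lost without TMM and without the 4 libraries holding *Xist* and Y-linked transcripts. Cytoskeletal genes rose in 23 of 36 cases and fell in 0 (median 0.86), led by the actin crosslinker gene *Flna* (1.84), *Tpm1* (1.61), *Arpc1b* (1.61), and *Tubb2b* (2.22).

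The response of PbWT was set beside that of the 2 other control groups of the series, in a fit of 23 libraries. These were mice given human IgG Fc (IgG, 4 CL and 4 UUO libraries) and mice labelled VeWT, noninduced carriers of the floxed *Veptp* allele with endothelial Cre (3 CL and 4 UUO libraries). From each group the fit took the libraries whose titles join a letter and a number with no separator, as all PbWT titles do, and the remaining IgG and VeWT libraries entered only the alternative with all libraries of the 3 control groups. The response of PbWT minus the mean response of the other two passed the test for 0 of 10878 genes higher and 0 lower in edgeR's quasi-likelihood test, with 723 genes at an unadjusted p under 0.05. DESeq2 called 0 higher and 3 lower. CL levels likewise differed for 0 genes in either direction, with 749 at an unadjusted p under 0.05 and 1 called lower by DESeq2. Median responses over lists are set side by side, with no test of their difference. For macrophage genes they were 2.32 in PbWT, 1.75 in IgG, and 2.11 in VeWT, for the matrix panel 1.82 in PbWT, 2.11 in IgG, and 2.20 in VeWT, for proximal tubule transporters -1.22 in PbWT, -0.90 in IgG, and -0.72 in VeWT, and for complexes II to V -1.15 in PbWT, -0.92 in IgG, and -0.75 in VeWT. The lowest adjusted p of a difference in response was shared by *Ces1d* and *Cfd*. *Cfd*, adipsin, had the larger difference (-7.67, SE 1.46), with PbWT CL library 3 far above the other PbWT CL libraries. *Ces1d*, a carboxylesterase, had a response of -3.44 in PbWT, -1.55 in IgG, and -1.72 in VeWT (difference -1.81, SE 0.34, adjusted p = 0.0503).

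Levels in obstructed kidneys differed for a small share of genes. In UUO kidneys 26 genes were higher (0.239%) and 143 lower (1.31%) in PbWT than in the mean of IgG and VeWT, against 375 and 51 without TMM and 0 and 0 with all libraries of the 3 control groups. *Hp*, the gene of the hemoglobin-binding acute-phase protein haptoglobin, had the lowest adjusted p, although it was too low to be tested in the fit of the *Pdgfb* arm. In this fit *Hp* was high only in UUO libraries of IgG and VeWT, the groups that PbWT is set against. It passed the filter through them, so its rank is no independent evidence. Its UUO level was 7.48 ± 2.85 CPM (range 4.71 to 11.5) in PbWT, 65.3 ± 41.9 CPM (range 12.4 to 115) in IgG, and 76.5 ± 37.7 CPM (range 28.4 to 121) in VeWT, against CL means of 5.60, 6.94, and 6.89 CPM. The 8 UUO libraries of IgG and VeWT in this fit each lay above the 4 of PbWT (log2 difference -3.06, SE 0.38, adjusted p = 3.6e-05). The difference in the response of *Hp* itself was -2.89 and did not pass the test (adjusted p = 0.45), and with all libraries of the 3 control groups the UUO difference had an adjusted p of 0.0754.

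Other genes with lower UUO levels in PbWT were *Dcxr* (log2 difference -0.99, adjusted p = 0.0056), a sugar reductase of the proximal tubule, *Mpc1* (log2 difference -0.78, adjusted p = 0.0056), a subunit of the mitochondrial pyruvate carrier, *4930506C21Rik* (log2 difference -0.76, adjusted p = 0.0059), and *Ces1d* (log2 difference -1.45, adjusted p = 0.0083). Higher ones were *Cxcl1* (log2 difference 1.14, adjusted p = 0.018), *Lbp* (log2 difference 1.27, adjusted p = 0.025), which binds bacterial lipopolysaccharide, *Enpp4* (log2 difference 0.94, adjusted p = 0.022), *Rhou* (log2 difference 1.19, adjusted p = 0.03), a small GTPase, and *Zfp568* (log2 difference 1.08, adjusted p = 0.03). Against the 1.31% lower over all genes, 23 of 42 genes of complexes II to V, 11 of 37 of complex I, and 9 of 41 proximal tubule enzyme genes were called lower. The median UUO differences of these lists were -0.56, -0.46, and -0.67 (log2). Their median differences in CL kidneys were -0.27, -0.25, and -0.03, so the respiratory genes stood lower in PbWT in CL as well. These medians were not tested. The counts of 26 higher and 143 lower genes leaned on single libraries. Without PbWT UUO library 4 they were 0 higher and 1 lower, without PbWT UUO library 2 1 and 10, without PbWT UUO library 1 5 and 48, and without VeWT UUO library 4 42 and 365. Without PbWT UUO library 3 the lower count was 69. Without IgG UUO libraries 1 and 2 in turn the higher counts were 9 and 3, the latter with 38 lower, and without VeWT UUO libraries 2 and 3 in turn the counts were 4 and 42 and 6 and 40. Without VeWT CL library 1 the higher count was 17, and without VeWT CL library 2 the lower count was 323.

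**Figure D5:**
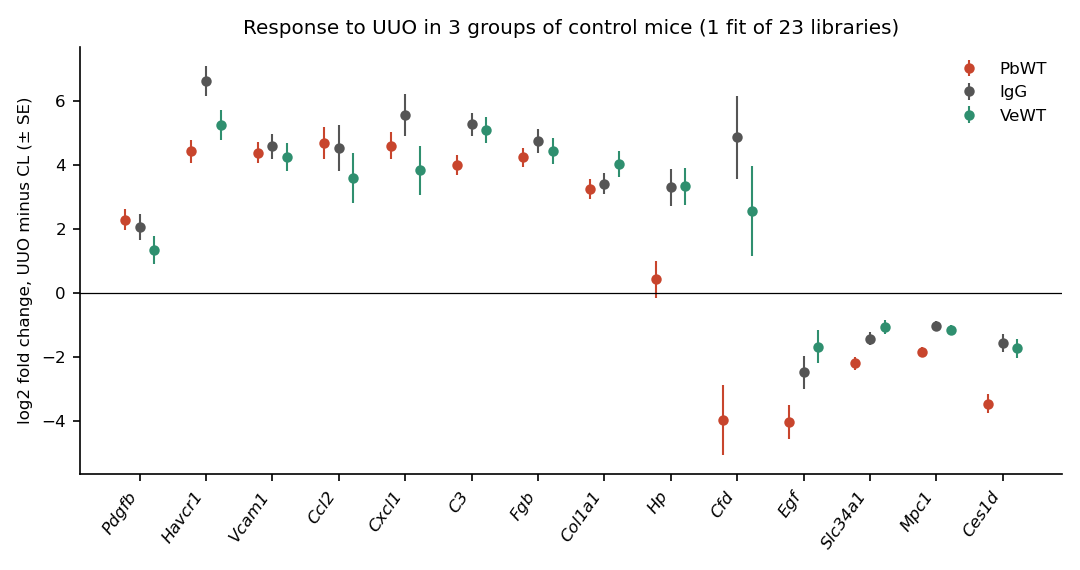
Response to UUO (log2 fold change against CL, vertical axis) of 14 genes in PbWT, IgG, and VeWT mice from 1 fit of 23 libraries, with points for the fitted value and bars for its standard error. *Hp* stands at 0.43 in PbWT against 3.31 in IgG and 3.33 in VeWT, *Cfd* goes down in PbWT and up in the others with wide bars, and for the other 12 genes the 3 groups have one sign.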

How the data were processed

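RNA was sequenced from whole kidneys with Smart-seq3, each sample in several wells whose reads were merged. The authors aligned the reads with STAR (version 2.7.3a) to mm10, removed duplicates by unique molecular identifier with UMI-tools (1.1.4), and counted reads per gene with featureCounts (Subread 1.4.6-p5), as given by the submitters' processing notes and the study's methods. The deposited values are raw counts of 32245 genes, 8897 of them at 0 in all 8 libraries. No source used here gives the annotation or whether counting used strand.

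From these counts, edgeR's quasi-likelihood test (edgeR 4.0.16 in R 4.3.3) was fitted with TMM factors to the 16 libraries of the *Pdgfb* arm, after edgeR's default filter on low counts, with Benjamini-Hochberg adjustment over the 10923 genes tested and a call at an adjusted p under 0.05. The 3 control groups were compared in a fit of 23 libraries, with TMM factors of its own, so that its CPM values differ slightly. The procedure was tested on simulated data. Library numbers follow accession order and do not pair CL and UUO libraries, as the labels name no animal.

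Named genes were *Pdgfb*, 3 of the panels the study displayed (tubular injury, matrix, and endothelium), the 10 largest rises and falls among called genes with an average log2 CPM of at least 4 and no overlap between the groups, and the members of each of 43 lists with the lowest adjusted p (4 in the main and 2 in the other direction), with up to 5 genes a direction in the other comparisons. Other genes named were picked from the lists for their known roles after their values were seen. Some list members count in the lists but are not reported by name here. The genes and lists were chosen with earlier results of these data known. Promoter windows were read from RefSeq, and gene positions are those of GENCODE on GRCm38. Alternatives were other normalizations, filters, tools (DESeq2 1.42.0), sets of libraries, thinning of the 16 libraries to 337545 counts, the total of the shallowest, a knockout library, and the omission of each library. Library totals limit the precision for low genes, and intervals cover counting error only.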

Additional observations from a re-analysis of the deposited data

Results flagged for a closer look

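In 493 groups of 4 libraries formed by the named genes, 31 held a library farther from the rest than Dixon's critical value for the gap over the range, and chance flags about 1 in 20 groups.
In CL, library 3 was the highest for *Cfd* (ratio 0.98), *Hk2* (1), *Fos* (0.94), and *Cd2ap* (0.91) and the lowest for *Bmp7* (0.869) and *Ttr* (0.87). CL library 1 was the highest for *Eif2s3y* (0.892), *Uty* (0.835), *Hbegf* (0.868), *Slc22a28* (0.845), and *Cyp2d12* (0.952) and the lowest for *Aqp2* (0.838). CL library 2 was the highest for *S100a6* (0.889), *Rhou* (0.868), and *Pdgfra* (0.83). CL library 4 was the highest for *Mmp3* (1), *Rela* (0.894), and *Ccnd1* (0.877) and the lowest for *C1qa* (0.921).

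In UUO, library 4 was the highest for *Mrc1* (0.943), *Adgre1* (0.927), *Col4a2* (0.88), *Pdgfrb* (0.847), and *Tgfbi* (0.846). UUO library 3 was the highest for *Dcxr* (0.951) and *Scnn1b* (0.851) and the lowest for *Hspb1* (0.899). UUO library 1 was the highest for *Nfkb1* (0.836) and *Gbp2* (0.8295) and the lowest for *Xist* (0.85), and UUO library 2 was the lowest for *Tnfrsf12a* (0.842). The macrophage receptor gene *Mrc1* stood at 70.5 CPM in UUO library 4 against 34.9 to 36.9 CPM in the other UUO libraries, and *Adgre1* at 37.2 CPM against 23.4 to 24.4 CPM.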

How the results depend on the processing

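The counts of genes higher and lower in UUO were within 1.5 times of 1957 and 2119 with DESeq2, edgeR's exact test, other filters, the 8 libraries alone, *Xist* as a covariate, ribosomal RNA-like transcripts left out, and robust dispersion. They were 4336 and 1166 without TMM, 4250 and 1134 in the exact test without TMM, 1250 and 1250 with all 75 libraries, 630 and 909 after thinning (7811 genes tested), and 1001 and 1284 without the 4 libraries holding *Xist* and Y-linked transcripts. Thinning left fewer genes to test and the last setting fewer libraries, and for the others the cause was not tested. Leaving out 1 library at a time gave 1655 to 1824 higher and 1890 to 2050 lower. The settings that left out those 4 libraries or the ribosomal RNA-like transcripts, and robust dispersion, were chosen after seeing the data. Thinning left 13 of the macrophage, 9 of the chemokine, 9 of the NF-κB, 14 of the matrix, 15 of the interferon, 7 of the immediate-early, and 3 of the TGF-β genes called higher and 12 of the collecting duct and 4 of the transcription factor genes called lower. For the difference in response, with 0 and 0 genes called, DESeq2 gave 3 lower, no filter 4 higher and 74 lower, and *Xist* as a covariate 2 lower. Leaving out 1 library gave 0 higher and 0 to 5 lower, the 5 without IgG UUO library 1. For CL levels, DESeq2 gave 1 lower, no filter 17 higher and 19 lower, all control libraries 1 higher, and leaving out 1 library 0 to 1 higher and 0 to 15 lower, the highest without VeWT CL library 2. For UUO levels, with 26 and 143 called, no TMM gave 375 and 51, DESeq2 12 and 359, no filter 86 and 276, a mean count of at least 20 gave 17 higher, all control libraries 0 and 0, *Xist* as a covariate 230 lower, and leaving out 1 library 0 to 42 and 1 to 365. Among named genes, *Csf1r* turned to -0.14 after thinning, and with *Xist* as a covariate *Eif2s3y* was at 2.01 and *Xist* itself at -0.40. Leaving out 1 library lost the call of *Atp5md* (CL library 2) and made calls of *Pecam1*, *Fos*, and *Tgfb2* (CL library 3), *Ccng1* (CL library 2), *Cfb* (CL library 1), and *Aqp2* and *Cyp27b1* (UUO library 3), and of *Tgfb2* also without UUO library 1. Of the genes named as called, those lost without TMM were *AY036118*, *Atp5md*, *Atp6ap2*, *Car3*, *Ccnd1*, *Cd59a*, *Cxcl12*, *Gm42418*, *Hba-a1*, *Hbb-bt*, *Lars2*, *Podxl*, *Ppargc1a*, *Rhpn1*, *Rps2*, and *Vegfb*. With all 75 libraries the further losses were *Aqp4*, *Cfd*, *Cnn2*, *Csf1r*, *Hmox1*, *Ptprb*, *Ren1*, *Scnn1a*, and *Trpv5*, after thinning *Cdh5*, *Cyp2d9*, *Esrra*, *Nfkb1*, *Pdgfa*, *Pdgfra*, *Timp2*, and *Vegfa*, and without the 4 libraries *Hbegf*, *Mmp2*, *Ppara*, and *Tnfaip3*. Of the named genes that did not pass the test, *Cfb*, *Cyp27b1*, *Egfr*, *Erbb2*, *Flt1*, *Hspa5*, *Krt7*, *Mdm2*, *Pax8*, *Pecam1*, *Plvap*, *Tek*, *Tgfb2*, and *Wt1* were called without TMM. Of other list counts that moved by over 1.5 times, 18 interferon genes were higher and 13 collecting duct genes lower without the 4 libraries holding *Xist* and Y-linked transcripts, and 5 sex-biased and 2 adipose genes were lower with all 75 libraries. No paired analysis was possible because the labels name no animal and give no replicate number, the library numbers being those of accession order. CL and UUO libraries hold limited depth, so genes of a few CPM rest on a handful of counts.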

Other observations

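Among p53 targets and growth arrest genes, beside 17.9% higher and 19.4% lower over all genes, 7 of 18 tested members rose and 1 fell (median log2 fold change 0.43). They were led by *Cdkn1a*, the cell cycle inhibitor p21, at 5.54, 9.76, 7.38, and 16.8 CPM in the CL libraries and 66.5, 79.2, 62.7, and 61.7 CPM in the UUO libraries (log2 fold change 2.73, SE 0.24, adjusted p = 3.9e-09), and by *Gdf15* (2.37) and *Pmaip1* (2.08), a stress cytokine and a BH3-only protein gene. *Mdm2* (0.33) and *Ccng1* (-0.34), which are widely used p53 targets, did not pass the test. The number of higher members was 4 without CL library 3, UUO library 2, or UUO library 3, 14 without TMM, 1 after thinning, and 3 with all 75 libraries or without the 4 libraries holding *Xist* and Y-linked transcripts. Of the EGF receptor ligand and receptor genes, *Nrg1* (1.92) and *Hbegf* (0.89) rose while *Egf* fell, and the call of *Hbegf* was lost without CL libraries 2, 3, or 4 or UUO library 4. The receptor genes were *Egfr* (0.31), *Erbb2* (0.15), *Erbb3* (0.09), and *Erbb4* (0.19), none of which passed the test. *Egfr* and *Erbb2* were called higher without TMM, and *Erbb3* in the exact test without TMM.

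Heat shock and endoplasmic reticulum stress genes had 6 of 21 higher and 2 lower (median 0.17), against 14 and 1 without TMM (median 0.53) and 2 and 1 after thinning or with all 75 libraries. The shares over all genes were 17.9% higher and 19.4% lower, to be read beside this list and the redox and renin-angiotensin lists below. *Hspb1*, the small heat shock protein HSP27, rose from 1.11, 4.18, 5.90, and 3.14 CPM in the CL libraries to 64.6, 67.3, 31.3, and 63.7 CPM in the UUO libraries (log2 fold change 3.99, SE 0.39, adjusted p = 1.7e-08), whereas the chaperone gene *Hspa5* (0.09) did not pass the test and *Herpud1* fell (-1.20). Redox and metal genes had 6 higher and 12 lower of 25 (median -0.51), against 7 and 7 without TMM (median -0.15) and 3 and 5 with all 75 libraries. The glutathione peroxidase genes *Gpx3* (-1.40), *Gpx4* (-0.99), and *Gpx6* (-3.66) fell, and *Aldh1a2*, which makes retinoic acid (log2 fold change 2.99, SE 0.35, adjusted p = 2.2e-07), the iron exporter gene *Slc40a1* (1.08), and *Hmox1* (1.06) rose. In the renin-angiotensin list 3 of 7 fell (*Ace* (-1.19), *Atp6ap2* (-0.61), and *Ren1* (-0.96), median -0.34, which was 0.02 without TMM). Thinning left 1 called lower, and so did leaving out the 4 libraries holding *Xist* and Y-linked transcripts. The calls of *Ren1* and *Atp6ap2* were lost in both settings. Cytosolic ribosomal protein genes had 7 higher and 1 lower of 50 (median 0.07), where all genes had 17.9% higher and 19.4% lower, a count of higher members that was 14 without CL library 2, 4 without CL library 3 or UUO library 4, and 41 without TMM. *Rps2*, the lower one, lost its call without CL libraries 2, 3, or 4 or UUO libraries 3 or 4.

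Markers of other tissues were few. Adipose genes fell in 4 of 5 cases tested, of which *Lpl* (-1.92) and *Pck1* (-2.13) are also kidney genes. *Cfd*, adipsin, stood at 5.54, 1.39, 211, and 3.14 CPM in the CL libraries and 5.02, 4.17, 0.793, and 3.92 CPM in the UUO libraries, so its call (log2 fold change -3.98, SE 1.44, adjusted p = 0.032) rested on CL library 3 and was lost without it, and also without any one of the UUO libraries. Its response in the other control groups was 4.87 in IgG and 2.57 in VeWT, and the difference from these was -7.67 (SE 1.46, adjusted p = 0.0503). *Car3*, the fourth adipose gene (-1.50), lost its call without CL library 1 or 3 or UUO library 3. Of 11 urothelial markers 1 was tested and did not pass. Red blood cell genes had 2 lower of 4, beside 19.4% lower over all genes, and these were *Hba-a1* (-0.59) and *Hbb-bt* (-0.69). Both calls were lost without CL library 2 or UUO library 1 or 3, and that of *Hbb-bt* also without CL library 4 or UUO library 4. Of 16 sex-biased kidney genes 10 fell and 0 rose (median -1.97), among them *Gm4450* (-1.92), *Slc22a28* (-3.02), and *Cyp2d9* (-2.37). Their summed level was 3931 and 3491 CPM in UUO libraries 1 and 2, with 220 and 73 Y-linked counts. It was 2033 and 1920 CPM in UUO libraries 3 and 4, and 10683 to 14495 CPM in CL, highest in library 1. A part of sex in these falls was not tested. The sex markers *Xist* (0.40), *Tsix* (0.45), *Ddx3y* (-0.90), *Eif2s3y* (-0.48), and *Uty* (-0.60) did not pass the test. Without the 4 libraries holding *Xist* and Y-linked transcripts, *Ddx3y* (-8.10), *Eif2s3y* (-8.46), and *Uty* (-7.06) were called lower, and the 4 libraries left held 174 Y-linked counts in CL library 1, 3 in CL library 2, and 1 in each UUO library. Of the ribosomal RNA-like transcripts, the calls of *Gm42418* (-0.70), *AY036118* (-0.69), and *Lars2* (-0.53) were lost without CL library 2, 3, or 4 or UUO library 1 or 3, the first and second of them also without UUO library 2, and *Gm26917* (-0.09) did not pass the test.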
